A study of Gallus gallus with 12 samples.

Results

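The change with age in the uterus of hens was set against the change with age in the magnum, gene by gene. A gene is called divergent here when its log2 change between 120 and 300 days of age differed between the segments. All 12 of the 12 libraries of the series entered this comparison, and 389 of the 14883 genes tested (2.61%) were divergent. The libraries came from Lohmann layers, a commercial egg-laying strain of chicken (Gallus gallus), and fall into 4 groups of 3: uterus at 300 days, uterus at 120 days, magnum at 300 days and magnum at 120 days. The series title describes the birds as laying and prelaying, and no treatment or genotype is given for any group. The labels do not say whether the 3 libraries of a group are separate hens or pools, or whether a uterus and a magnum library share a hen, so each p-value speaks for the variation among these libraries and no wider, and that variation may be technical in part.

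The oviduct of a bird works as a production line. The magnum, its longest segment, has tubular glands that secrete the egg white proteins, and the uterus, or shell gland, transports calcium and carbonate and lays down the shell. Both segments are small and poorly differentiated before sexual maturity, and ovarian steroids drive their growth and specialisation when lay begins. Because the segments specialise in different products, the question here is which genes followed a different course in each.

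The gene table lists 19820 genes as whole numbers that had already been brought to a common level, called scaled counts below. The column totals, which are not depth, ran from 16376839 to 17274374 in the uterus at 300 days, 14543795 to 15468376 in the uterus at 120 days, 44995822 to 77432154 in the magnum at 300 days and 14499548 to 25071610 in the magnum at 120 days. The highest total at 120 days was that of magnum replicate 1. In this total the library stood apart from the other 2 of its group (14499548 and 14557061), and counts are therefore also given without it. By rank, gene by gene, it was close to replicate 2 and more often an extreme of its group than replicate 3. Over all tested genes it was the highest of its group for 36.7% and the lowest for 39.5%. Replicate 2 was the highest for 35.2% and the lowest for 36.5%, and replicate 3 for 26.7% and 21.8%. Ranks do not show how far apart the libraries lay. The tables name genes by numbers that are paired with no symbol, and 0 of the 19820 identifiers matched the chicken reference table used here. No gene function, pathway or cell type can be given for a divergent gene, and the segment labels could not be checked against marker genes. The 4 identifiers printed below are examples of the main classes, taken as the most abundant eligible gene of a class. A gene was eligible with no value of 0, a group mean of at least 200 and age changes that did not overlap between the segments over any pair of libraries.

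For 239 of the divergent genes (1.61% of those tested) the age change was higher in the uterus than in the magnum, and for 150 (1.01%) it was lower. The interaction of age and segment was tested on log2(scaled count + 1) with limma's moderated test at a Benjamini-Hochberg adjusted p below 0.05. Most divergent genes changed detectably in a single segment. For 323 of the 389 (83.03%) the age change itself passed in 1 segment and not in the other, 218 of them through the magnum and 105 through the uterus. For 52 (13.4%) it passed in both segments with opposite signs, for 13 (3.34%) it passed in both with the same sign and unequal size, and for 1 it passed in neither. Shares of all tested genes that passed in exactly 1 segment, or in both with the same sign, are not given here. The 83.03% and 3.34%, and the division into 218 and 105, are therefore not shown to be particular to divergent genes. A change in 1 segment alone means below that it passed only there, which does not show that the other segment was unchanged. A gene listed at 0 in every library of a segment could not pass in that segment. Over all tested genes, 0.349% passed with opposite signs, and these were the same 52 genes. In bulk tissue a change in the number of cells of a type and a change in RNA per cell cannot be told apart, and this holds for every class below.

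**Figure D1:**
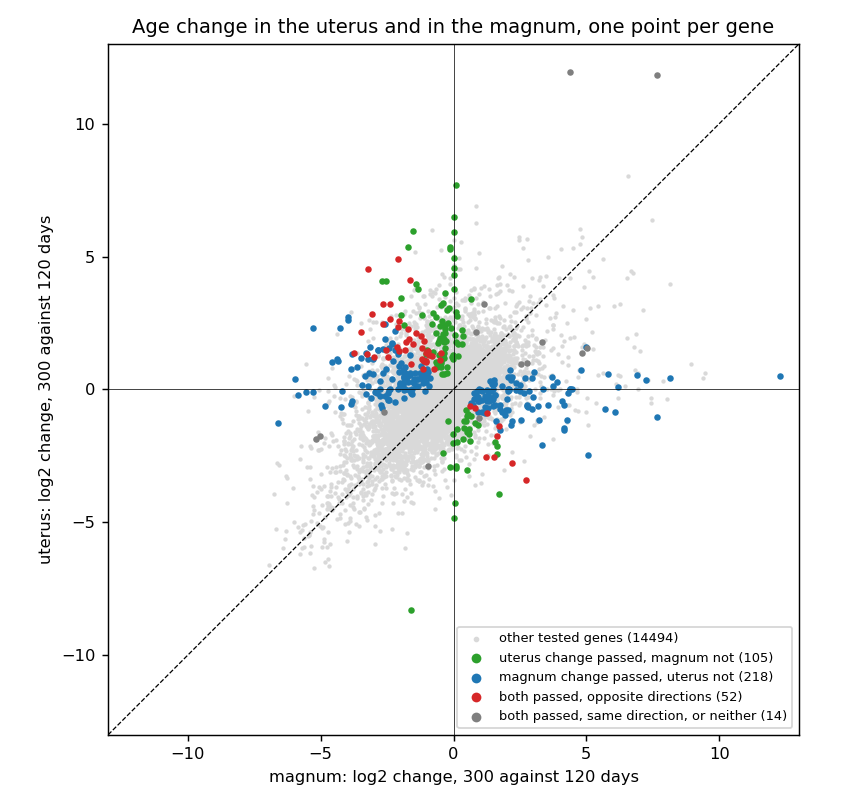
Log2 change between 300 and 120 days in the uterus (vertical axis) against that in the magnum (horizontal axis), 1 point per tested gene. The dashed line marks equal change. The 389 divergent genes lie off this line. For 218 of them the change passed in the magnum only (blue) and for 105 in the uterus only (green). The 52 that passed in both with opposite signs lie in the upper left and lower right quadrants (red). For 23 of the 389, listed at 0 throughout a group, the plotted change depends on the pseudocount of 1.

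The share of divergent genes with the higher change in the uterus, 61.4%, depended on the scaling. It was 51.2% with the deposited FPKM values (250 higher, 238 lower) and 99.2% when every column was divided by its sum (8946 higher, 74 lower), a step that moved the median interaction of all tested genes to 1.60, against 0.03 in the deposited scaling. Directions below are therefore relative to a typical gene of the same library. All 389 kept their sign with the FPKM values, and 355 of them after division by library totals.

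A fall in the magnum with no change that passed in the uterus was found for 115 genes. Falls in the magnum, whatever the uterus did, made up 13.6% of all tested genes. The class of 115 was the largest in the fit described above, but the order of the classes changed under some other settings. With a pseudocount of 10 it held 100 genes, against 125 that rose in the magnum alone and 106 that rose in the uterus alone. With blocks by replicate number it held 69, against 73 that rose in the magnum alone. With log2(FPKM + 1) it held 81 genes, against 189 that rose in the magnum alone and 120 that rose in the uterus alone, and with log2(FPKM + 0.1) it held 104, against 158 that rose in the magnum alone. Without replicate 1, 2 or 3 of the magnum at 120 days it held 268, 29 and 21, against 283, 36 and 28 that rose in the magnum alone and 91, 36 and 32 that rose in the uterus alone. Its median level over genes was 561, 581 and 572 scaled counts in the 3 uterus libraries at 300 days and 444, 404 and 489 in those at 120 days. The magnum medians were 83, 71 and 87 at 300 days and 263, 400 and 413 at 120 days. By class median the magnum at 300 days lay below all other groups in every library, while the other groups lay close together. The choice of genes that fell in the magnum alone favours both. Magnum replicate 1 at 120 days was an exception and stood between the other 2 of its group and the 300-day level. That replicate was the lowest of its group for 82 of the 115 genes (71.3%), against 39.5% of all tested genes. Without the 4 genes listed at 0 throughout a group, the median log2 change was 0.43 in the uterus and -2.21 in the magnum. The uterus change was positive for 85 and negative for 30 of the 115, without passing.

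The most abundant eligible gene of this class was gene6715, with a gene length of 3731 bases. It stood at 37833, 42146 and 44857 scaled counts in the uterus at 300 days, against 9399, 5381 and 11467 at 120 days. Magnum libraries held 56, 94 and 95 at 300 days, against 489, 5801 and 10657 at 120 days. The 300-day libraries did not overlap the 120-day ones in either segment, and the segments overlapped at 120 days and were far apart at 300 days. The interaction was 7.59 ± 1.19 on the log2 scale (SE, limma, adjusted p = 0.00778). The magnum fell by 5.28 ± 0.84 (adjusted p = 0.00152), and the uterus change of 2.32 ± 0.84 did not pass (adjusted p = 0.0872).

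The mirror class, a rise in the magnum with no change that passed in the uterus, held 103 genes. Rises in the magnum, whatever the uterus did, made up 12.1% of all tested genes. The median level of the 103 was 386, 338 and 409 scaled counts in the uterus at 300 days and 483, 595 and 545 at 120 days. For the magnum libraries the medians were 2470, 2618 and 1917 at 300 days and 796, 596 and 598 at 120 days. By class median the 3 magnum libraries at 300 days stood above the rest, an order that the choice of magnum rises favours. Magnum replicate 1 was the highest of its 120-day group for 68 of the 103 genes (66.0%), against 36.7% of all tested genes. Without the 3 genes listed at 0 throughout a group, the median log2 change was -0.26 in the uterus and 2.06 in the magnum, with magnum changes from 0.67 to 12.29.

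The most abundant eligible gene of this class was gene15634, with a gene length of 1607 bases. It stood at 31552, 28263 and 22225 scaled counts in the uterus at 300 days, against 78708, 5570 and 37916 at 120 days. Magnum levels were 725825, 567868 and 485929 at 300 days, against 17206, 2776 and 10378 at 120 days. The 120-day values varied widely, and replicate 2 was the lowest in both segments. The uterus ages overlapped, while the magnum at 300 days lay above every other library. The interaction was -6.12 ± 1.20 (SE, limma, adjusted p = 0.0268), with a magnum rise of 6.21 ± 0.85 (adjusted p = 0.00077) and a uterus change of 0.08 ± 0.85 (adjusted p = 0.96). This call was the least stable of the 4 examples. It did not pass without replicate 2 or 3 of the magnum at 120 days (adjusted p = 0.0583 and 0.0674), replicate 1 or 2 of the magnum at 300 days (0.0508 and 0.0586), replicate 3 of the uterus at 120 days (0.0608) or any single uterus replicate at 300 days (0.0658, 0.0716 and 0.0649 for replicates 1 to 3), nor after quantile normalization (0.163). Over all its alternatives the adjusted p ran from 0.00179 to 0.163 and the sign was the same.

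Genes that changed through the uterus alone numbered 105, against 218 through the magnum alone. Over all tested genes, too, more changes passed in the magnum (12.1% rises, 13.6% falls) than in the uterus (6.54% rises, 7.21% falls). The larger number through the magnum is therefore not shown to be particular to divergent genes. The order of the 2 numbers turned without uterus replicate 1 at 120 days, with 230 through the uterus alone and 222 through the magnum alone. A rise in the uterus with no change that passed in the magnum was found for 74 genes. Rises in the uterus, whatever the magnum did, made up 6.54% of all tested genes. The median level of the 74 was 1552.5, 1435.5 and 1494.5 scaled counts in the uterus at 300 days and 462.5, 270.5 and 396 at 120 days. The medians in the magnum were 252, 233.5 and 270 at 300 days and 311, 311.5 and 361 at 120 days. Of the 120-day uterus libraries, replicate 1 was the highest for 46 of the 74 genes (62.2%) and replicate 2 the lowest for 47 (63.5%), against 27.5% and 35.5% of all tested genes. In this class 11 genes were listed at 0 throughout a group, and the median log2 change of the other 63 was 1.93 for the uterus and -0.39 for the magnum. Some of the 11 were listed at 0 in every magnum library. These entered the test through the uterus alone, and no magnum change could pass for them.

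A fall in the uterus with no change that passed in the magnum was found for 31 genes. Falls in the uterus, whatever the magnum did, made up 7.21% of all tested genes. The median level of the 31 was 172, 145 and 120 scaled counts in the uterus at 300 days and 425, 800 and 500 at 120 days. Magnum medians were 897, 906 and 1062 at 300 days and 845, 706 and 578 at 120 days. By class median the 3 uterus libraries at 300 days were the lowest of the 12, an order that the choice of uterus falls favours. Of the 120-day uterus libraries, replicate 1 was the lowest for 22 of the 31 genes (71.0%), against 34.4% of all tested genes. Replicate 2 was the highest for 20 (64.5%), against 37.4%. Without 2 genes listed at 0 throughout a group, the median log2 change was -1.67 in the uterus and 0.46 in the magnum.

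**Figure D2:**
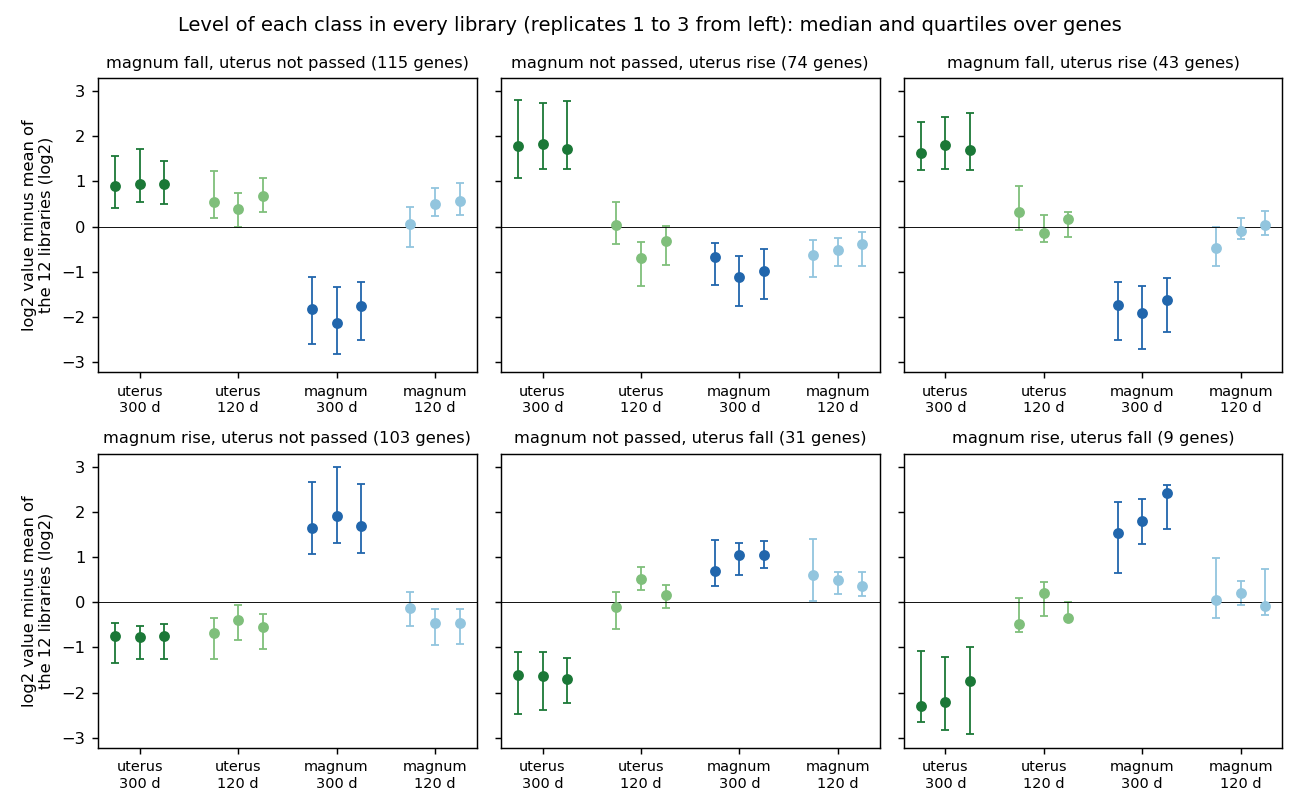
Level of the 6 main classes in each of the 12 libraries, as the log2 value of a gene minus its mean over all libraries; points are medians over the genes of a class and bars the quartiles. In the 2 left panels (115 and 103 genes) the magnum at 300 days stands apart, in the middle panels (74 and 31 genes) the uterus at 300 days, and in the right panels (43 and 9 genes) both, on opposite sides of the 120-day libraries. The classes were chosen by these age changes, which favours such patterns.

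Opposite changes ran mostly in 1 direction: 43 genes rose in the uterus and fell in the magnum, and 9 fell in the uterus and rose in the magnum. With log2(FPKM + 0.1) these were 42 and 18 genes, and without magnum replicate 1 at 120 days 70 and 25. The median level of the 43 was 1409, 1615 and 1436 scaled counts in the uterus at 300 days and 720, 419 and 550 at 120 days. In the magnum it was 117, 97 and 126 at 300 days and 310, 518 and 512 at 120 days. At 120 days the class medians of the segments overlapped, and at 300 days those of the uterus exceeded those of the magnum in every library. The choice of genes by opposite changes favours this order. Without 1 gene listed at 0 throughout a group, the median log2 change was 1.47 in the uterus and -1.61 in the magnum. The median level of the 9 was 245, 261 and 265 scaled counts in the uterus at 300 days and 618, 1098 and 589 at 120 days, against 2194, 2342 and 3205 in the magnum at 300 days and 1354, 1052 and 905 at 120 days. Their median log2 change was -1.74 in the uterus and 1.52 in the magnum. Single libraries stood apart here too. For the 43, uterus replicate 1 was the highest of its 120-day group for 28 genes (65.1%), against 27.5% of all tested genes, and magnum replicate 1 the lowest of its 120-day group for 32 (74.4%), against 39.5%. For the 9, magnum replicate 3 was the highest of its 300-day group for all 9, against 33.7% of all tested genes.

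The most abundant eligible gene of the 43 was gene9368, with a gene length of 6186 bases. It stood at 26206, 24588 and 12313 scaled counts in the uterus at 300 days, against 523, 1032 and 550 at 120 days. In the magnum it stood at 117, 113 and 152 at 300 days, against 236, 1094 and 628 at 120 days. The segments held the gene at overlapping levels at 120 days and moved apart in opposite directions. The interaction was 7.003 ± 0.69 (SE, limma, adjusted p = 0.000744), made up of a uterus rise of 4.90 ± 0.49 (adjusted p = 0.000303) and a magnum change of -2.10 ± 0.49 (adjusted p = 0.0102). On average the uterus held 21036 ± 7597 scaled counts at 300 days and 702 ± 286 at 120 days, and the magnum 127 ± 21.5 at 300 days and 653 ± 430 at 120 days (SD, n = 3 each).

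Among the 9, the gene with the highest level was gene7481, with a gene length of 8130 bases. It stood at 523, 431 and 435 scaled counts in the uterus at 300 days, against 2286, 3754 and 2233 at 120 days. In the magnum it stood at 13117, 12720 and 20063 at 300 days, against 6556, 6512 and 6307 at 120 days. Unlike in the other 3 examples, the segments passed as different already at 120 days, with less in the uterus. The log2 difference was -1.27 ± 0.23 (SE, limma, adjusted p = 0.0311), and it reached -5.02 ± 0.23 at 300 days (adjusted p = 2.68e-07). The interaction was -3.75 ± 0.32 (adjusted p = 0.000482), with a uterus change of -2.53 ± 0.23 (adjusted p = 0.000232) and a magnum rise of 1.21 ± 0.23 (adjusted p = 0.00362). The 120-day differences of gene6715 (1.42 ± 0.84) and gene15634 (1.69 ± 0.85) were larger in size but less precise and did not pass. That of gene9368 was 0.29 ± 0.49. The interactions of gene6715, gene9368 and gene7481 passed whichever of the 12 libraries was left out and in all other alternatives run. With a library left out, that of gene6715 lay between 6.71 and 8.93, that of gene9368 between 6.50 and 7.61 and that of gene7481 between -3.88 and -3.50 on the log2 scale.

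**Figure D3:**
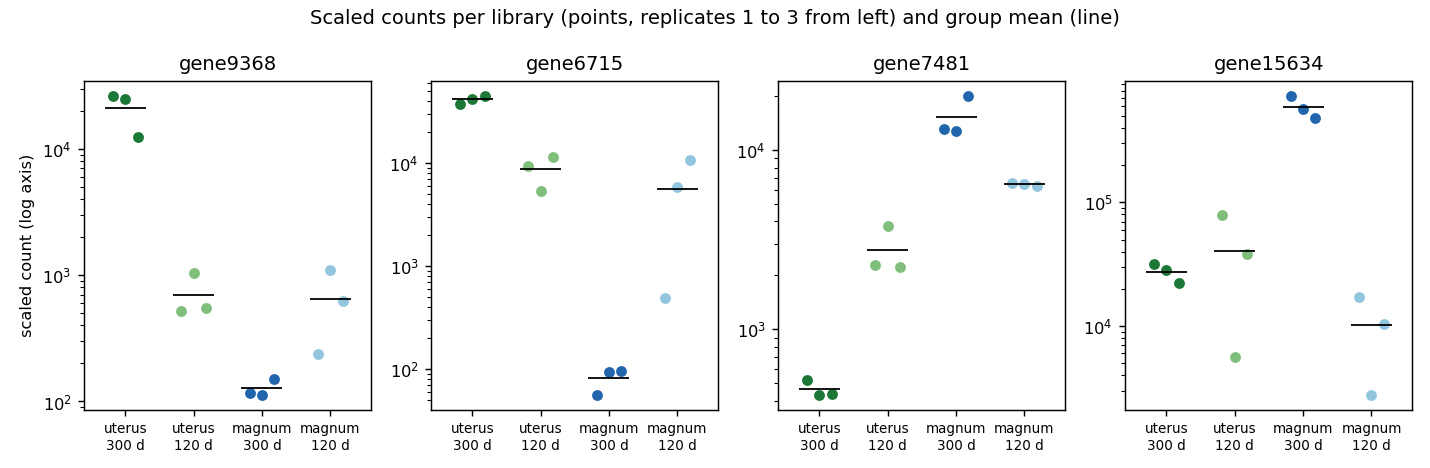
Scaled counts of the 4 example genes in every library, on a log axis, with the group mean as a line. The uterus at 300 days reaches 12313 to 26206 for gene9368, where the magnum at 300 days holds 113 to 152. The wide 120-day groups of gene6715 in the magnum (489 to 10657) and of gene15634 in the uterus (5570 to 78708) are visible.

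Few of the divergent genes passed in both segments with the same sign, and this share is not set against all tested genes. Further genes had the same sign in both without passing in both. Of the classes that changed in the magnum alone, these were 30 of the 115 (85 opposite) and 32 of the 103 (68 opposite). Of those that changed in the uterus alone, they were 11 of the 74 (57 opposite) and 6 of the 31 (24 opposite). Of the 13 genes whose change passed with the same sign in both segments, 4 rose more in the uterus, 5 rose more in the magnum, 3 fell more in the magnum and 1 fell more in the uterus. The 5 that rose more in the magnum had a median log2 change of 1.38 in the uterus and 3.34 in the magnum. The 3 that fell more in the magnum had medians of -1.74 in the uterus and -5.01 in the magnum. Of the 4 that rose more in the uterus, 2 were listed at 0 throughout a group, and the others had interactions of 1.33 and 2.08.

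In nearly all divergent genes the segments passed as different at 300 days only, which does not show that they were equal at 120 days. This held for 373 of the 389, and for 23.6% of all tested genes. They passed at both ages for 8, at 120 days alone for 4 and at neither age for 4. The median size of the log2 difference between uterus and magnum was 2.81 at 300 days and 0.46 at 120 days among divergent genes, and 0.52 at 300 days and 0.27 at 120 days among all tested genes. The difference was larger at 300 days for 379 of the 389 (97.4%), against 71.3% of all tested genes. The interaction is the change in this difference and comes from the same libraries, so these values describe the divergent genes and do not test them. Few genes passed between the segments at 120 days (0.618%, against 24.1% at 300 days).

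**Figure D4:**
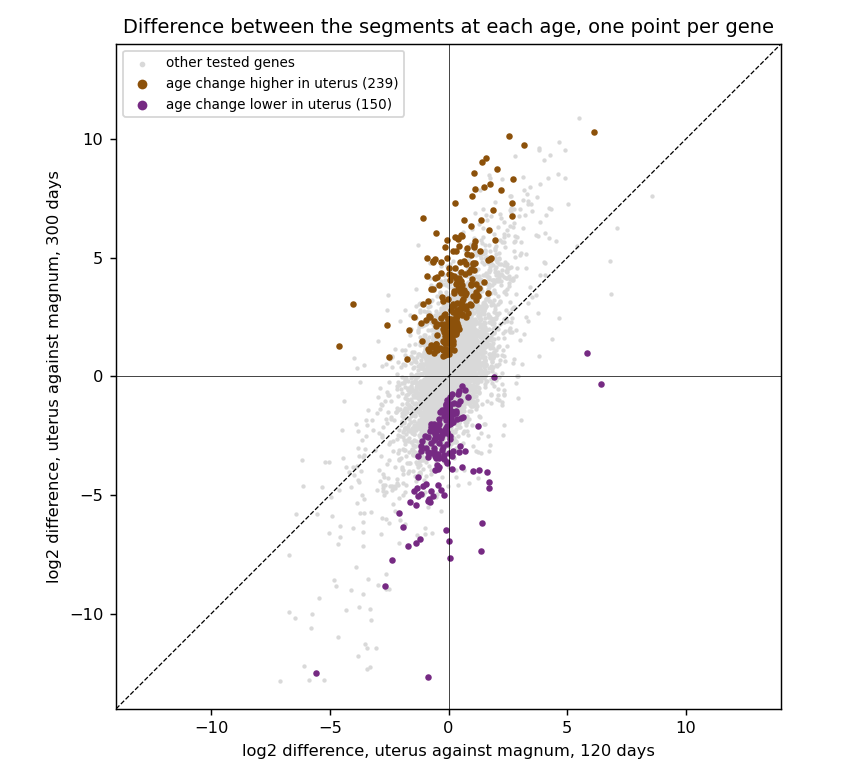
Log2 difference of the uterus against the magnum at 300 days (vertical axis) against that at 120 days (horizontal axis), 1 point per tested gene; the dashed line marks an equal difference at both ages. Divergent genes spread along the vertical axis, with a median size of 2.81 at 300 days and 0.46 at 120 days, and few lie along the horizontal axis.

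The larger segment difference at 300 days can be divided by the group that departed most from the other 3. This was taken as the group whose mean log2 level lay farthest from the median of the 4. A 300-day group lies farthest exactly when the segments differ more at 300 days. That it usually was a 300-day group therefore repeats the preceding result, and only the division between uterus and magnum is added. This division describes the divergent genes and does not test them. Among divergent genes it was the uterus at 300 days for 134, the uterus at 120 days for 8, the magnum at 300 days for 245 and the magnum at 120 days for 2. Over all tested genes the shares were 26.9%, 15.6%, 44.4% and 13.1% in the same order. There too the magnum at 300 days led the uterus at 300 days, with 6609 against 4002 genes. The lead of the magnum is therefore not shown to be particular to divergent genes. Among genes with the higher change in the uterus it was the uterus at 300 days for 100 and the magnum at 300 days for 134. Among those with the lower change it was the uterus at 300 days for 34 and the magnum at 300 days for 111.

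Divergent genes were found among weakly and strongly expressed genes. Taking the highest of the 4 group means, 39 of the 389 stayed below 100 scaled counts, 222 reached 1000 and 29 reached 10000. Of the 14883 tested genes, 2810 stayed below 100, 5588 reached 1000 and 313 reached 10000. The share of tested genes that were divergent was 2.11% (11 of 521) at a mean over the 12 libraries below 10 scaled counts, 1.63% at 10 to 100, 2.54% at 100 to 1000, 3.35% at 1000 to 10000 and 6.94% (10 of 144) from 10000 upward. The median of the highest group mean was 948 among genes with the higher change in the uterus, 2012 among those with the lower change and 638 among all tested genes. For 23 of the 150 genes with the lower change in the uterus, the uterus at 300 days averaged fewer than 20 scaled counts. It did so for 1637 of the 14883 tested genes. For 61 of the 239 genes with the higher change in the uterus the magnum at 300 days averaged fewer than 20 scaled counts. The magnum at 300 days did so for 2008 of the 14883 tested genes. Both 300-day levels are terms of the interaction, so the choice of genes by direction favours low levels in these groups. In the 3 magnum libraries at 300 days, 10 to 12 of the whole numbers from 1 to 20 were nearly unused. Each was held by fewer than 20 genes. There 1 read is worth more than 1 scaled count, and such low levels rest on few reads. In magnum replicate 1 at 120 days 3 of these numbers were nearly unused, so its low values too rest on fewer reads than they show. The median gene length was 4398 bases among divergent genes and 3553 among all tested, and loci with a new-gene label made up 5.66% (22) of divergent and 7.49% of tested genes. These properties were not tested.

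The size of an interaction and its call often parted. At least 16-fold unequal age change, a log2 interaction of 4 or more in size, was measured for 186 genes with no group listed at 0 throughout (1.25% of those tested), of which 75 passed. Their median SE was 1.34, against 0.457 over all tested genes. A group mean of at least 50000 scaled counts was reached by 35 genes, and 5 of them were divergent. The 26 of these that were most abundant in the magnum at 300 days had a median interaction of -4.88, negative for 25 of 26, a direction that their choice by the 300-day magnum level favours. Of the 26, 4 passed (15.4%), and 18 passed (69.2%) when magnum replicate 1 at 120 days was left out. Over all tested genes the share that passed was 5.62% without this library, against 2.61% with it. The median interaction of the 26 was -6.79 without it, and their median SE 0.806, against 1.76 with it. That library was set apart by its column total, to which the most abundant genes add most. Leaving it out therefore favours a larger interaction, a smaller SE and more calls among these 26, and tests nothing.

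The number of divergent genes rested on single libraries. Without magnum replicate 1 at 120 days it was 453 higher and 383 lower, and 375 of the 389 remained. Without replicate 2 or 3 of that group it was 90 and 75 higher with 53 and 39 lower. Without magnum replicate 2 at 300 days it was 102 higher and 62 lower. Without uterus replicate 2 or 3 at 120 days it was 136 and 127 higher with 81 and 76 lower. Without uterus replicate 1, 2 or 3 at 300 days it was 77, 72 and 100 higher with 44, 46 and 59 lower. Leaving out magnum replicate 1 or 3 at 300 days or uterus replicate 1 at 120 days moved neither count by more than 1.5 times. The sign of the interaction was the same for all 389 genes in all 12 of these fits.

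The classes moved with these totals. Opposite changes numbered from 23 without magnum replicate 3 at 120 days to 95 without magnum replicate 1 at 120 days. The class that fell in the magnum alone numbered from 21 to 268 and the class that rose in the magnum alone from 28 to 283, with the same 2 libraries left out. The class that rose in the uterus alone numbered from 21 without uterus replicate 1 or 2 at 300 days to 169 without uterus replicate 1 at 120 days, and the class that fell in the uterus alone from 6 without uterus replicate 1 at 300 days or magnum replicate 3 at 120 days to 61 without uterus replicate 1 at 120 days. Of the 389 divergent genes, 101 passed in all 12 fits, 64 with the higher and 37 with the lower change in the uterus. These held 36 of the 52 opposite changes, 19 of the 105 that passed through the uterus alone, 42 of the 218 that passed through the magnum alone and 4 of the 13 with the same sign. The median size of the interaction was 3.43 for opposite changes and 2.39 for changes that passed in 1 segment, with median SEs of 0.444 and 0.473.

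**Figure D5:**
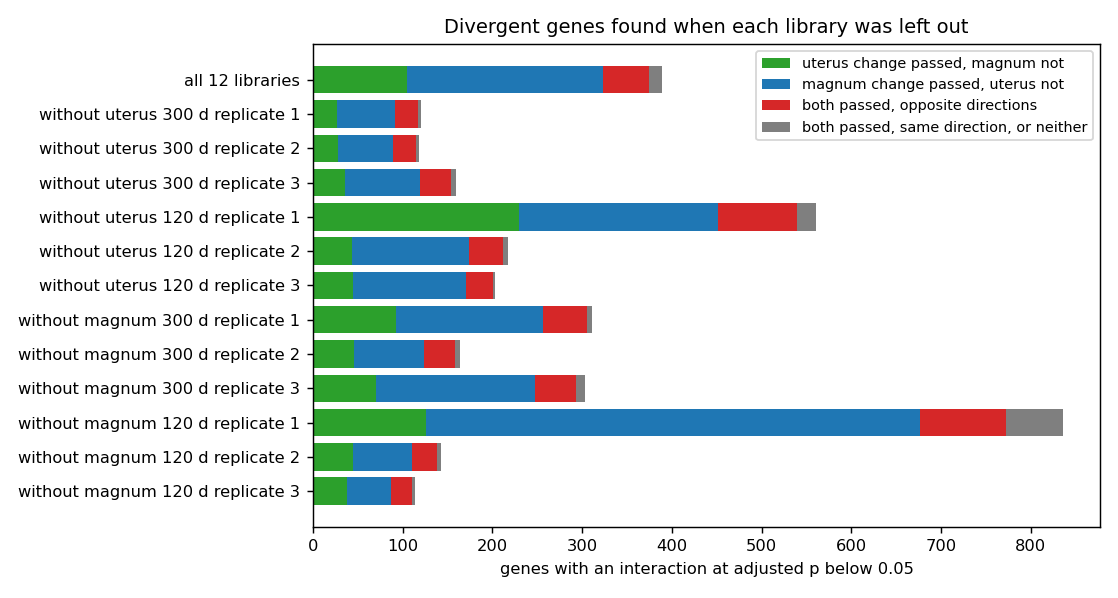
Number of divergent genes with all 12 libraries and with each library left out, divided by the segment in which the age change passed. The bars run from 114 genes without magnum replicate 3 at 120 days to 836 without magnum replicate 1 at 120 days, against 389 with all libraries.

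The error of the interaction came from all 4 groups. The median SD of a gene on the log2 scale was 0.206 in the uterus at 300 days, 0.402 in the uterus at 120 days, 0.392 in the magnum at 300 days and 0.325 in the magnum at 120 days (n = 3 each). The uterus at 300 days contributed 13.2% of the summed variance, the uterus at 120 days 31.9%, the magnum at 300 days 27.7% and the magnum at 120 days 27.2%. The smallest interaction that passed was 0.869 in size. A description without a model gave a wider set: for 1492 genes (10% of those tested) the 9 library-by-library age changes of the uterus all lay above or all below the 9 of the magnum. All 389 divergent genes were among them.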

How the data were processed

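Messenger RNA libraries were made from uterus and magnum of Lohmann layers, per the labels' protocols. Cufflinks 2.0.2, FastQC 0.11.6, GATK 3.8, TopHat2 2.0.8 and Trimmomatic 0.32 are named, without role or order, per the submitters' processing notes. For genome build, annotation and counting the sources used here state nothing, so how reads common to near-identical or overlapping genes were assigned is not known. The deposited whole numbers were treated as scores, that is scaled counts: size factors of the columns were 0.974 to 1.01 while totals ran from 14499548 to 77432154. Depth is unknown. The deposited FPKM values served as an alternative.

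A gene was tested when 3 or more libraries reached a value of 10 (14883 genes). Limma 3.58.1 in R 4.3.3 fitted 1 coefficient per group with a mean-dependent prior to log2(scaled count + 1), with 8 residual degrees of freedom, two-sided, with Benjamini-Hochberg adjustment over all tested genes and a threshold of 0.05. The fold scale understates changes of low genes. Classes used the age changes of the same fit, so class counts carry no test. No fold is given for a gene listed at 0 throughout a group. The fit was also run on simulated independent normal values with known interactions placed in the uterus at 300 days. These held no outlying library, unequal group spread or replicate pairing, so that run says nothing about such features. Tables and figures used Python 3.11.15, NumPy 2.4.6, pandas 2.3.3 and matplotlib 3.10.9.

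Examples were, in each direction, the most abundant gene with opposite changes and the most abundant of the largest other class, among genes with no 0, a group mean of at least 200 and non-overlapping library-by-library changes. The gene lists planned for these tissues need symbols and were not used. The comparison, classes and lists were chosen with earlier results of these data known. In all, 26 alternative fits were made: FPKM values, pseudocounts, filters, scalings, variance models, replicate blocks and left-out libraries.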

Additional observations from a re-analysis of the deposited data

Results flagged for a closer look

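The age change differed between the uterus and the magnum, by a test of the difference itself, for 239 genes in the direction of the uterus and for 150 in the direction of the magnum. Among the 4 example genes the difference was 7.003 for gene9368, 7.59 for gene6715, -3.75 for gene7481 and -6.12 for gene15634 on the log2 scale.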

How the results depend on the processing

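Against 239 higher and 150 lower divergent genes, the counts were 113 and 63 after quantile normalization, 670 and 486 with limma array weights, 560 and 407 when the 120-day replicates 1 of uterus and magnum were both left out, and 8946 and 74 after division by library totals, which shifts all genes. Lower genes alone moved to 238 with log2(FPKM + 1) and to 96 with no mean-dependent prior. Leaving out 1 library gave 72 to 453 higher and 39 to 383 lower. A pseudocount of 10, either other filter, log2(FPKM + 0.1), upper quartile rescaling and robust empirical Bayes kept both counts within 1.5 times. The cause was not tested. None of the interactions of the 4 example genes reversed under the 26 alternatives.

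Whether equal replicate numbers pair a uterus and a magnum library was checked on the deviations from group means, which correlated across genes at 0.361, 0.591 and 0.390 for replicates 1 to 3 at 120 days and at 0.198, 0.216 and 0.0838 at 300 days. The last is below 0.1, so the numbers were not taken as pairs, although all 12 libraries correlated best with their own number, a hint from the data and not the design. With a replicate block for same-numbered libraries of an age, 432 genes were higher and 296 lower and 354 of the 389 remained; with 3 blocks by replicate number, across ages and segments, there were 163 higher and 106 lower genes and 241 remained.

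Depth is unknown, 3 libraries a group limit every count, and low magnum values at 300 days rest on few reads.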
